A study of Mus musculus with 9 samples.

Results

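The genes described here are 10 members of the JAK, STAT and SOCS families in mouse microglial cells, namely the kinase genes Jak1 and Jak2, the transcription factor genes Stat3, Stat5a, Stat5b and Stat6, and the inhibitor genes Socs1, Socs2, Socs3 and Cish. They were taken by gene name from a table of 54532 genes. All 10 had a mean of at least 0.2 FPKM (fragments scaled to gene length and library size) over the 9 libraries and so were among the 16123 genes tested. RNA was sequenced from BV2, an immortalised mouse microglial cell line, in 3 groups of 3 libraries. Control cells were kept in complete medium with 10% serum. Cells under oxygen-glucose deprivation (OGD) were kept in low-glucose medium with 4% serum in a chamber with 4% oxygen. The third group had the same deprivation together with A-485, which inhibits P300, a histone acetyltransferase. In the experiments before the transcriptome, deprivation lasted 24 h and A-485 was used at 50 µM, and both are not stated again for the sequenced cells. No group received A-485 without deprivation, so an action of A-485 that needs deprivation and another that does not cannot be told apart. Oxygen, glucose and serum all differ between control and OGD and likewise cannot be told apart. Nothing states that the libraries of a group came from separate cultures, so p-values measure only the spread between these libraries, which may be technical.

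The libraries held between 12593250 and 16091038 reads on genes. Of 16 marker genes of microglia and macrophages, 14 had a mean of at least 1 FPKM, with Cd68 the most abundant at 343 FPKM. P2ry12 and Sall1, which mark microglia in the brain, had means under 0.2 FPKM over the 9 libraries, though P2ry12 averaged 0.244 FPKM in OGD + A-485. None of the markers of neurons, astrocytes, oligodendrocytes, endothelium, fibroblasts or lymphocytes reached a mean of 1 FPKM. The summed FPKM of the 16 markers was 659, 673 and 648 in the control libraries, 837, 824 and 838 with OGD, and 1670, 1652 and 1697 with OGD + A-485. The myeloid markers as a whole were thus higher in every OGD library than in every control library, and higher again with A-485, and their part in the results was not tested. In RNA from whole cultures, fewer expressing cells and less RNA per cell cannot be told apart.

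Cytokine receptors of this pathway have no kinase activity of their own and are bound by the JAK kinases, which phosphorylate the receptor and the STAT proteins recruited to it once a ligand has bound. The STATs then pair, enter the nucleus and switch on genes, among them those of the SOCS proteins and Cish, which block the receptors or mark signalling proteins for degradation and so close a negative feedback loop. In microglia and macrophages, GM-CSF signals mainly through JAK2 and STAT5, the IL-6 family and IL-10 through STAT3, and IL-4 and IL-13 through STAT6.

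A gene was called higher or lower where limma gave an unadjusted p-value under 0.01 and the absolute log2 fold change was above 0.5, the thresholds of the study. Fold changes are on the log2(FPKM + 0.1) scale, which understates the change of genes with low FPKM. With OGD, 1 of the 10 genes was called higher, Cish, and 0 were called lower, against 11.2% and 9.81% of all genes tested. At an unadjusted limma p under 0.05, 6 were higher and 1 was lower, and limma-voom on the recovered reads called 1 higher and 0 lower. With a Benjamini-Hochberg adjusted limma p under 0.05 and no minimum size, 5 genes (Jak1, Stat5b, Stat6, Socs3 and Cish) were higher and 1 (Stat5a) was lower, against 22.5% and 22.8% of all genes. The OGD and control libraries did not overlap in 10 of the 10 genes, against 55.4% of all genes. Most members thus shifted by less than the size threshold, and Cish stood apart in size.

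With A-485 added to OGD, 3 genes were called higher (Stat5a, Stat6 and Socs3) and 1 lower (Cish), against 12.2% and 13.4% of all genes tested. At an adjusted limma p under 0.05 (Benjamini-Hochberg), 4 were higher, with Stat3 in addition, and 1 was lower, against 25.1% and 24.7%. The groups did not overlap in 6 of the 10 genes, against 56.8% of all genes. Between OGD + A-485 and control, 2 were called higher (Stat6 and Socs3) and 1 lower (Cish), against 17.0% and 16.6%. At an adjusted limma p under 0.05 (Benjamini-Hochberg), 5 were higher (Jak1, Stat3, Stat5a, Stat6 and Socs3) and 2 lower (Socs1 and Cish), against 28.2% and 28.4%, and the groups did not overlap in 9 of the 10, against 63.8%. The comparisons share libraries and are not independent of each other. The median log2 fold change of all genes tested was close to 0 in each comparison (0.01 with OGD, 0.01 with A-485 against OGD and 0.02 with OGD + A-485 against control).

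**Figure D1:**
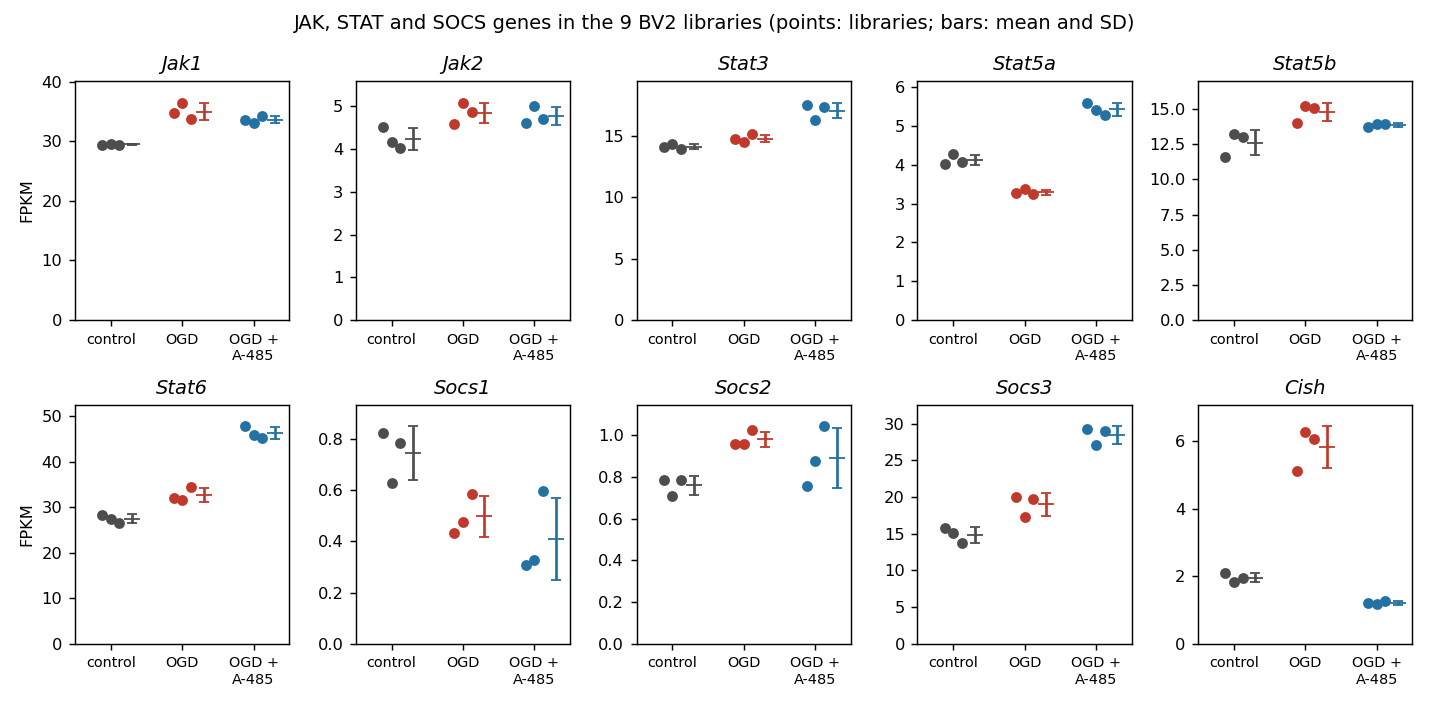
FPKM of each of the 10 genes (vertical axis, from 0) by group. Points are libraries and bars show the mean and SD of 3 libraries. Cish is high only in the OGD libraries, Stat5a is lowest there, and Stat6 and Socs3 are highest with A-485.

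**Figure D2:**
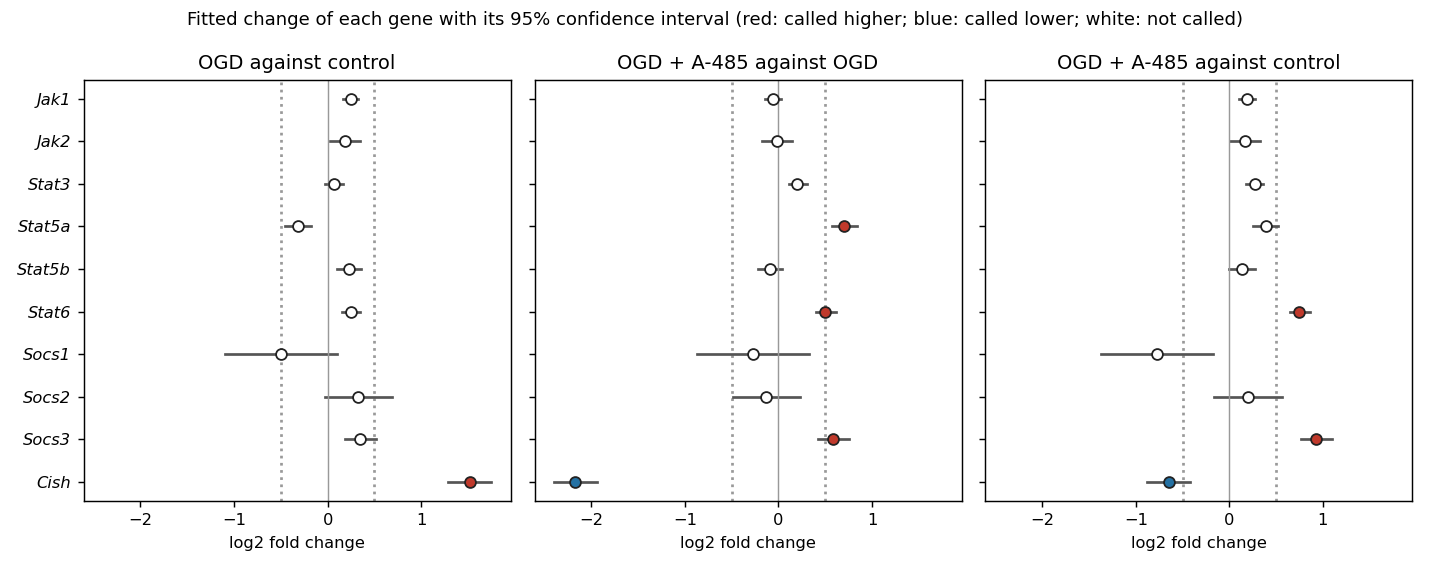
Fitted log2 fold change of each gene (horizontal axis) with its 95% confidence interval in the 3 comparisons. Filled points were called and dotted lines mark the size threshold of 0.5. Cish moves from 1.52 with OGD to -2.17 with A-485 against OGD, while Jak1 and Jak2 lie at most 0.25 from 0 in each panel.

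The JAK kinase genes moved little. Jak1, which serves interferon, IL-6 and common gamma chain receptors, measured 29.4, 29.6 and 29.4 FPKM in control, 34.8, 36.5 and 33.7 under OGD, and 33.6, 33.1 and 34.2 with A-485. The control libraries lay below all others, and both deprived groups overlapped. OGD moved Jak1 by 0.25 on the log2 scale (limma with Benjamini-Hochberg adjustment, adjusted p = 0.000608, standard error 0.04), and A-485 by -0.06 relative to OGD (adjusted p = 0.233, limma). Jak2, the kinase of GM-CSF, growth hormone and erythropoietin receptors, measured 4.51, 4.16 and 4.01 FPKM in control, 4.59, 5.07 and 4.86 under OGD, and 4.61, 5.0 and 4.70 with A-485. Its deprived libraries again lay above control and overlapped each other, with log2 fold changes of 0.19 and -0.02 (adjusted p = 0.0522 and 0.840, limma). The Jak1 to Jak2 ratio of FPKM averaged 6.99 ± 0.413 for control, 7.24 ± 0.332 for OGD and 7.06 ± 0.379 for OGD + A-485 (SD, n = 3). The groups overlapped in this ratio (two-sided exact permutation p between 0.5 and 0.7, where 3 against 3 libraries can give no p below 0.1, so the test could not pass 0.05 for any ratio).

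The remaining kinases of the family moved more. Jak3, which pairs with the common gamma chain, measured 9.15, 10.5 and 8.93 FPKM in control, 12.5, 14.2 and 15.2 under OGD, and 8.84, 7.53 and 7.36 with A-485. The OGD libraries lay above both other groups, and those with A-485 lay below control. Jak3 was called higher with OGD (log2 fold change 0.55, adjusted p = 0.00191, limma) and lower with A-485 (-0.81, adjusted p = 0.000153, limma). The rise was 0.50 with equal library totals and 0.49 without OGD replicate 3, and not called in either. Tyk2, a kinase of type I interferon and IL-12 receptors, rose from 4.34 ± 0.346 to 7.07 ± 0.442 FPKM with OGD (log2 fold change 0.69, adjusted p = 0.000144, limma) and measured 7.49 ± 0.521 with A-485 (0.08 against OGD, adjusted p = 0.439, limma; SD, n = 3 each).

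Among the STAT genes, Stat5a was the only member whose level was lowest in OGD in every library and highest with A-485 in every library. STAT5A carries signals of GM-CSF, IL-3 and prolactin. Its gene measured 4.02, 4.28 and 4.09 FPKM in control, 3.27, 3.37 and 3.25 under OGD, and 5.60, 5.41 and 5.28 with A-485, from 297 to 610 reads per library. The groups did not overlap in any pair. OGD shifted it by -0.32 (adjusted p = 0.00219, limma, standard error 0.06), short of the size threshold, and A-485 by 0.70 relative to OGD (adjusted p = 1.57e-05, limma, standard error 0.06), which was called. Against control, OGD + A-485 differed by 0.39 (adjusted p = 0.000438, limma). Each difference was larger than the spread between replicates.

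Stat5b, its close paralog and the main carrier of growth hormone signals in liver, did not follow it. It measured 11.6, 13.2 and 13.0 FPKM in control, 14.0, 15.2 and 15.1 under OGD, and 13.7, 14.0 and 13.9 with A-485. The OGD libraries were the highest and the control libraries the lowest, but the gap between OGD and A-485 was far smaller than the spread between OGD replicates. Its log2 fold changes were 0.23 with OGD (adjusted p = 0.0114, limma) and -0.09 with A-485 (adjusted p = 0.233, limma). The ratio of Stat5a to Stat5b FPKM was 0.347, 0.323 and 0.313 in control, 0.233, 0.221 and 0.215 under OGD, and 0.409, 0.388 and 0.379 with A-485. The log2 ratio differed by -0.54 with OGD, 0.79 with A-485 against OGD and 0.25 with OGD + A-485 against control, with no overlap between groups. The two-sided exact permutation p was 0.1 in each comparison, the smallest that 3 against 3 libraries can give, and 0.15 after Benjamini-Hochberg adjustment over 9 tests.

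These STAT genes are neighbours on chromosome 11 of GRCm38. Stat5b (100780731 to 100850724, minus strand) ends 8626 bases before Stat5a (ENSMUSG00000004043, 100859351 to 100885169, plus strand), whose last 72 bases overlap the end of Stat3 (100885098 to 100939540, minus strand). The processing notes do not say if strand was used in counting, so reads in those 72 bases cannot be assigned between Stat5a and Stat3. The 50 nearest genes expressed at 1 FPKM or more on average had a median log2 fold change of 0.04 with OGD and -0.07 with A-485. With this median removed, the changes of Stat5a were -0.36 and 0.77. Of these neighbours, 5 were called higher and 6 lower with A-485, beside 12.2% and 13.4% of all genes.

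Stat3, which transmits signals of the IL-6 family and of IL-10, measured 14.0, 14.3 and 13.9 FPKM in control, 14.7, 14.5 and 15.1 under OGD, and 17.5, 16.3 and 17.3 with A-485. The libraries with A-485 lay above all others, and those of OGD lay just above control. The shift with OGD was 0.07 (adjusted p = 0.223, limma) and that with A-485 was 0.20 (adjusted p = 0.00262, limma, standard error 0.04), under the size threshold.

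Stat6 (ENSMUSG00000002147, chromosome 10, 127642986 to 127660957, plus strand), the transcription factor of IL-4 and IL-13 signalling, measured 28.4, 27.5 and 26.4 FPKM in control, 32.0, 31.5 and 34.4 under OGD, and 47.8, 45.8 and 45.3 with A-485. The groups stood in that order with no overlap. With A-485 the log2 fold change against OGD was 0.50 (95% confidence interval 0.40 to 0.61, adjusted p = 2.54e-05, limma), on the edge of the size threshold, and against control it was 0.75 (adjusted p = 1.3e-06, limma). The first was no longer called at 0.49 with a pseudocount of 1, 0.38 with quantile normalization, 0.44 with equal library totals, 0.39 with the median of neighbouring genes removed, 0.49 and 0.48 without OGD replicates 1 and 2, and 0.48 without OGD + A-485 replicate 1. The change against control was called in each of these settings. Stat6 shares 40 bases with Nab2 on the opposite strand. Stat6 stood below Jak1 in the control libraries, overlapped it in OGD and was the most abundant of the 10 genes per length with A-485.

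Stat2, a STAT of type I interferon signalling, measured 2.83, 2.85 and 2.71 FPKM in control, 3.83, 3.68 and 3.65 under OGD, and 2.03, 2.16 and 2.09 with A-485. It was called lower with A-485 (log2 fold change -0.80, adjusted p = 2.17e-05, limma), and its difference of 0.40 with OGD was under the size threshold. Stat4, used by IL-12, had 0 reads in 8 of the 9 libraries and was not tested.

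Cish showed the largest changes of the 10 genes, by log2 fold change, in the first pair of comparisons. It encodes an SH2 protein that is induced by STAT5 and binds cytokine receptors as a feedback inhibitor. Cish (ENSMUSG00000032578, chromosome 9, 107296026 to 107302784, plus strand) measured 2.09, 1.84 and 1.94 FPKM in control, 5.12, 6.27 and 6.07 under OGD, and 1.20, 1.16 and 1.26 with A-485, from 113 to 548 reads per library. Every OGD library lay above every control library, and every library with A-485 lay below control. The log2 fold change was 1.52 with OGD (95% confidence interval 1.29 to 1.75, adjusted p = 6.86e-06, limma), a 2.87-fold rise. With A-485 it was -2.17 against OGD (-2.40 to -1.94, adjusted p = 6.04e-07, limma), a 4.50-fold fall, and -0.65 against control (-0.88 to -0.42, adjusted p = 0.000551, limma).

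Of the 50 neighbours of Cish over 2.79 Mb, 1 was called higher and 19 lower with A-485 against OGD, beside 12.2% and 13.4% of all genes. Their median was -0.34, with 15 above 0, and the median against control was -0.42. With the median removed, the fall against OGD was -1.83 and still called, while the difference from control was -0.23 and no longer called. With a pseudocount of 1 the latter was -0.42 and not called either. With OGD alone, the neighbours had a median of -0.07, and Cish less this median was 1.59. A pair of genes on the opposite strand, Gm17040 and Gm17041, overlap Cish, with means of 0.125 and 0 FPKM.

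**Figure D3:**
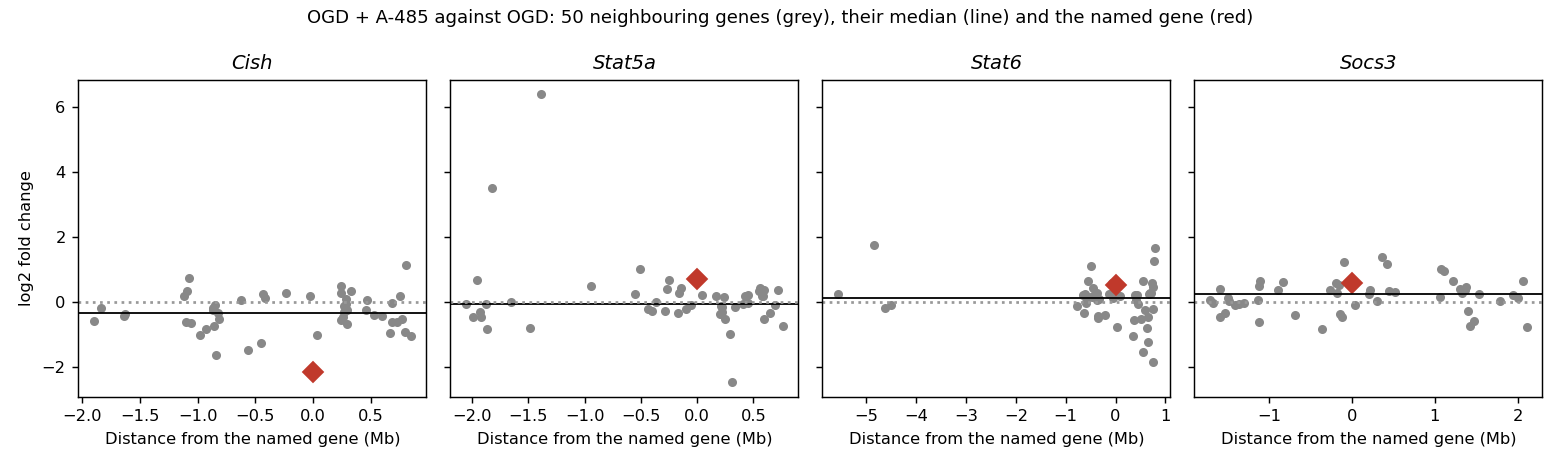
Log2 fold change of OGD + A-485 against OGD (vertical axis) of the 50 nearest genes averaging 1 FPKM or more (grey), by distance from the named gene in Mb. Red diamonds are Cish, Stat5a, Stat6 and Socs3, and black lines the neighbours' medians of -0.34, -0.07, 0.12 and 0.23. Cish lies below each of its neighbours.

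Socs3 (ENSMUSG00000053113, chromosome 11, 117966079 to 117970047, minus strand), the feedback inhibitor of IL-6 family and G-CSF receptors, moved otherwise. It measured 15.8, 15.1 and 13.7 FPKM in control, 20.1, 17.2 and 19.7 under OGD, and 29.3, 27.1 and 29.0 with A-485. The groups ascended in that order without overlap. The log2 fold change was 0.35 with OGD (adjusted p = 0.00375, limma), 0.58 with A-485 against OGD (adjusted p = 0.000167, limma, standard error 0.07) and 0.93 against control (adjusted p = 6.02e-06, limma). Of the 50 neighbours of Socs3, 11 were called higher and 3 lower with A-485, against 12.2% and 13.4% of all genes, with a median of 0.23 and 16 below 0. With that median removed, its change against OGD was 0.35 and no longer called, and that against control was 0.68 and called.

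To show the sequence at these inhibitor genes, which moved oppositely with A-485 against OGD, the RefSeq promoter windows (250 bases before to 50 after a start, GRCm38.p6) were searched for 3 motifs on both strands, the STAT-type palindrome TTCNNNGAA, the form of it with 1 more base in the middle that STAT6 prefers, and the core ACGTG of the hypoxia response element. Windows were found for 9 of the 10 genes, 11 in all, and not for Socs2. TTCNNNGAA lay in the windows of Cish and Socs3 only, 2 of 11 windows, against 8.30% of 32851 windows of the same length. The Cish window held it 2 times, and 0.457% of all windows held it at least 2 times. The Cish stretch (chr9:107296654-107296683, plus strand) lies in an exon that GENCODE M21 gives as untranslated region of Cish, and its first match begins at the RefSeq start. The Socs3 stretch (chr11:117969501-117969530, minus strand) lies in an intron of a Socs3 transcript of that annotation, and its match begins at -154 from the RefSeq start. Both are written 5′ to 3′ with the matches in capitals.
Cish: cagttTTCCTGGAAagTTCTTGGAAatctg
Socs3: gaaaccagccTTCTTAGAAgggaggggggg
The longer form was in none of the 11 windows and in 6.95% of all windows. ACGTG was in the windows of Cish, at -99 and -47 from the start, and of Stat6, at -114, and in 19.6% of all windows. A match of letters is a description, and binding was not measured in these libraries.

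Socs1, the strong inhibitor of interferon-gamma signalling, was near the limit of detection, with 13 to 37 reads per library. It measured 0.824, 0.627 and 0.786 FPKM in control, 0.432, 0.475 and 0.587 under OGD, and 0.306, 0.327 and 0.596 with A-485. Control libraries lay above all others, and OGD + A-485 replicate 3 lay above the OGD libraries while its companions lay below them. The log2 fold change against control was -0.50 with OGD (95% confidence interval -1.10 to 0.10, adjusted p = 0.160, limma) and -0.77 with OGD + A-485 (-1.37 to -0.17, adjusted p = 0.0341, limma), with an unadjusted p of 0.0183 (limma) that missed the call. Without OGD + A-485 replicate 3 it was -1.02 and called, and it was also called with equal library totals, limma-voom (-0.91), no trend in the prior variance (-0.77) and the neighbours' median removed (-0.95).

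Socs2, an inhibitor of growth hormone signalling that is a target of STAT5 like Cish, measured 0.785, 0.707 and 0.784 FPKM in control, 0.956, 0.959 and 1.02 under OGD, and 0.754, 0.877 and 1.04 with A-485. The OGD libraries lay above control, and those with A-485 spread over both. Its log2 fold changes of 0.33 with OGD and -0.13 with A-485 were not called (adjusted p = 0.124 and 0.524, limma). The ratio of Cish to Socs2 FPKM was 2.66, 2.60 and 2.48 in control, 5.35, 6.54 and 5.94 under OGD, and 1.60, 1.33 and 1.22 with A-485. The groups did not overlap, and the log2 ratio differed by 1.19 with OGD and by -2.04 with A-485 against OGD (two-sided exact permutation p = 0.1, the smallest possible, 0.15 after adjustment over 9 tests).

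Among the other SOCS genes, Socs5 was called lower with A-485, from 6.83 ± 0.322 FPKM in OGD to 3.93 ± 0.168 (SD, n = 3; log2 fold change -0.78, adjusted p = 1.2e-05, limma). Its 50 neighbours had a median of -0.28, and with that removed the change was -0.50 and no longer called. Socs4, Socs6 and Socs7 were called in none of the 3 comparisons, with log2 fold changes between -0.36 and 0.30. Of the partners that couple SOCS proteins to ubiquitin ligation (Elob, Eloc, Cul5, Cul2, Rnf7, Rbx1, Nedd8 and Ube2f), all 8 tested, 0 were called higher and 0 lower with OGD by limma or limma-voom (0 higher and 3 lower at an unadjusted limma p under 0.05), beside 11.2% and 9.81% of all genes. With A-485, 1 was called higher, Nedd8 (0.58, adjusted p = 8.02e-05, limma), and 0 lower (2 lower at an unadjusted limma p under 0.05, 0 with limma-voom), beside 12.2% and 13.4% of all genes. Nedd8 was at 0.43 with quantile normalization and 0.13 with the neighbours' median removed, and not called in either.

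The ligands of JAK-coupled receptors mostly went up with OGD and down with A-485. Of 35 listed, 11 were tested, of which 7 were called higher and 0 lower with OGD, beside 11.2% and 9.81% of all genes. Their median log2 fold change was 0.93 against 0.01 for all genes. At an unadjusted limma p under 0.05, 8 were higher and 0 lower, and limma-voom called 8 higher and 0 lower. With A-485, 1 was called higher and 8 lower, beside 12.2% and 13.4% of all genes, with a median of -1.23. Csf3, which encodes G-CSF, measured 20.8 ± 1.82, 88.1 ± 3.25 and 32.9 ± 4.73 FPKM for control, OGD and OGD + A-485 (SD, n = 3), log2 fold changes of 2.08 and -1.43 (adjusted p = 1.59e-06 and 6.32e-06, limma). Lif, an IL-6 family cytokine, changed by 1.93 and -3.13 (adjusted p = 3.89e-05 and 1.66e-06, limma), and Il6 fell by 3.37 on the log2 scale with A-485 (adjusted p = 2.66e-06, limma). With A-485, Il6 had 11 to 20 reads per library. Every OGD library lay above every control library for Il6 (0.61, adjusted p = 0.0403, limma), but its unadjusted p of 0.0175 (limma) missed the call. Il15, which supports lymphocytes through the common gamma chain, was the ligand called higher with A-485, from 2.78 ± 0.435 to 5.90 ± 0.467 FPKM (SD, n = 3; 1.07, adjusted p = 0.000195, limma). Csf2, which encodes GM-CSF and was chosen after its values were seen, went from 2.13 ± 0.561 to 4.45 ± 0.779 and 0.949 ± 0.220 FPKM (SD, n = 3), the order of groups seen for Cish.

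The receptors went the other way with A-485. Of 40 listed chains, 23 were tested, of which 8 were called higher and 0 lower with OGD (4 lower at an unadjusted limma p under 0.05, 1 called lower with limma-voom), beside 11.2% and 9.81% of all genes, with a median of 0.10. With A-485, 14 were called higher and 1 lower, beside 12.2% and 13.4%, with a median of 0.63 against 0.01 for all genes. The summed myeloid markers given above were higher with A-485 as well, and their part in this count was not tested. Il10ra, the ligand-binding chain for IL-10, went from 4.33 ± 0.232 to 18.1 ± 1.51 and 26.0 ± 1.26 FPKM, and Il7r from 5.30 ± 0.120 to 15.0 ± 1.26 and 28.4 ± 2.21 FPKM (SD, n = 3). Their log2 fold changes with OGD were 2.04 and 1.48 (adjusted p = 3.02e-07 and 1.7e-06, limma). With A-485, Il15ra (1.85, adjusted p = 1.12e-05, limma) and Il12rb2 (1.65, adjusted p = 2.49e-05, limma) rose most among called chains with a mean of at least 1 FPKM, and Il12rb1 fell (-1.53, adjusted p = 4.93e-06, limma). Chains of the GM-CSF receptor, chosen after their values were seen, were highest with A-485, where their ligand was lowest, at 9 to 14 reads per library. Csf2ra measured 29.5 ± 2.19, 44.8 ± 2.99 and 61.0 ± 4.39 FPKM and Csf2rb 22.7 ± 0.612, 34.6 ± 1.70 and 48.9 ± 0.859 FPKM over the same groups (SD, n = 3). The change of Csf2ra with A-485, 0.45, was under the size threshold.

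Of 20 other regulators of JAKs and STATs, 19 were tested, and 2 were called higher and 1 lower with OGD, and 2 higher and 2 lower with A-485. The shares of all genes were 11.2% and 9.81% with OGD and 12.2% and 13.4% with A-485. At an adjusted limma p under 0.05 (Benjamini-Hochberg) with no minimum size, 8 were higher and 5 lower with OGD (22.5% and 22.8% of all genes), and 8 higher and 6 lower with A-485 (25.1% and 24.7%), and a difference of the list from all genes was not tested. Usp18, a brake on interferon receptor signalling, fell from 4.93 ± 0.656 to 2.64 ± 0.211 FPKM with OGD (SD, n = 3; -0.87, adjusted p = 0.00243, limma). Sh2b1, an adaptor of JAK2, rose by 0.60 (adjusted p = 0.000305, limma), and so did Ptprc, the phosphatase CD45, by 0.53 (adjusted p = 0.000145, limma), which is also among the myeloid markers. The call of Ptprc was lost with a pseudocount of 1 (0.49), equal library totals (0.48) and without OGD replicate 2 (0.46). With A-485, Grb2 (0.77, adjusted p = 7.69e-07, limma) and Cbl (0.59, adjusted p = 1.54e-05, limma) rose, Cbl at 0.50 and not called with quantile normalization. Ptpn2, a phosphatase of JAK1 and STATs (-0.57, adjusted p = 0.000294, limma), and Sh2b3, an inhibitory adaptor of JAK2 (-0.52, adjusted p = 0.000357, limma), fell. The call of Ptpn2 was lost without OGD + A-485 replicate 1 (-0.49) and with the neighbours' median removed (-0.37), and that of Sh2b3 with a pseudocount of 1 (-0.50) and without OGD replicate 3 (-0.45) or OGD + A-485 replicate 2 (-0.47).

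Of 12 genes that STAT5 is known to induce, 11 were tested. With OGD, 5 were called higher and 0 lower (median 0.63). There, 1 (Ccnd2) was lower at an unadjusted limma p under 0.05, and limma-voom called 6 higher and 0 lower. With A-485, 1 was called higher and 5 lower (median -0.69). The shares of all genes were 11.2% and 9.81% with OGD and 12.2% and 13.4% with A-485. Only Cish, Pim2 and Osm were called both higher with OGD and lower with A-485, and Osm is on the ligand list as well. Lta, which encodes lymphotoxin, also lay above control in every OGD library (5.82 ± 0.400 to 12.8 ± 0.724 FPKM, SD, n = 3). Its log2 fold change of 1.13 had an adjusted p of 0.0383 (limma), but its unadjusted p of 0.0164 (limma) missed the call. Myc, the growth regulator, rose from 0.862 ± 0.123 to 2.83 ± 0.251 FPKM with OGD (SD, n = 3; 1.61, adjusted p = 4.06e-05, limma). With A-485, Lta fell from 12.8 ± 0.724 to 0.497 ± 0.304 FPKM (-4.61, adjusted p = 1.42e-05, limma), where it had 3 to 14 reads per library. Ccnd2, a cyclin, rose with A-485 from 27.6 ± 0.483 to 47.7 ± 0.169 FPKM (0.79, adjusted p = 2.53e-07, limma, SD, n = 3 each). Pim2, a survival kinase chosen after its values were seen, went from 42.3 ± 0.672 to 91.0 ± 2.29 and back to 45.6 ± 2.73 FPKM (SD, n = 3). Many of these genes answer to other signals as well, and the part of STAT5 was not tested.

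The list for STAT3 was mixed. All 16 genes were tested, with 8 called higher and 3 lower with OGD (median 0.50; 11.2% and 9.81% of all genes) and 5 higher and 4 lower with A-485 (median -0.06; 12.2% and 13.4% of all genes). Hp, an acute-phase gene for haptoglobin, measured 3.73 ± 0.509 FPKM without treatment, 0.968 ± 0.0758 under OGD and 17.4 ± 1.78 with A-485 (SD, n = 3), log2 fold changes of -1.84 and 4.03 (adjusted p = 5.53e-06 and 5.15e-08, limma). Bcl6, a transcriptional repressor, had the same order (-1.03 and 1.60, adjusted p = 0.000214 and 1.23e-05, limma), and Saa3 rose by 2.89 with A-485 (adjusted p = 2.04e-05, limma). Tnfaip3, a brake on NF-kappaB, and Lcn2, an iron-scavenger carrier, rose with OGD (1.97 and 1.27, adjusted p = 2.39e-07 and 3.92e-07, limma). Il1rn, the IL-1 receptor antagonist, and Nfil3 fell with A-485 (-1.17 and -1.10, adjusted p = 3.61e-07 and 7.42e-07, limma).

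**Figure D4:**
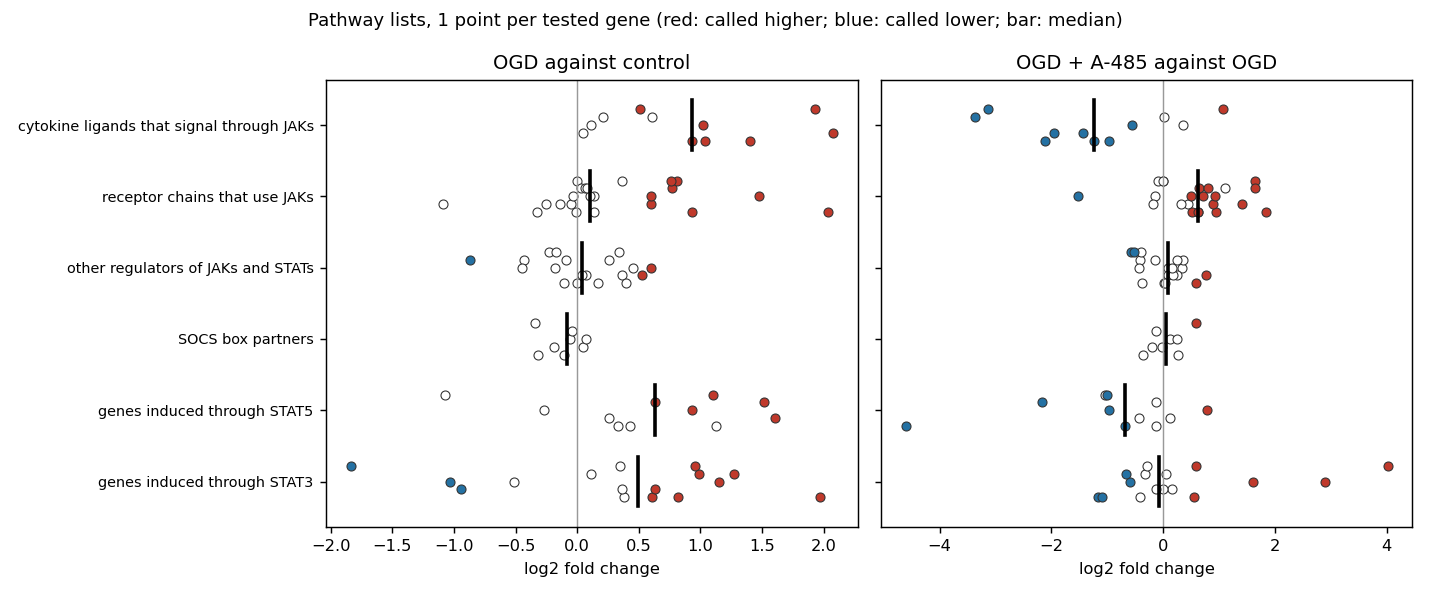
Log2 fold change (horizontal axis) of each tested gene of the pathway lists with OGD against control and with OGD + A-485 against OGD. Filled points were called and bars are medians. The ligands have medians of 0.93 and -1.23 and the receptors of 0.10 and 0.63.

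The genes with values most like those of Cish over the 9 libraries were sought among the 11898 genes that averaged 1 FPKM or more, by the Euclidean distance of log2(FPKM + 0.1) centred on each gene's mean. The nearest were Synpo (distance 0.318), Cda (0.352), Gm11419 (0.443), Gm37090 (0.447) and Acap1 (0.480). Synpo encodes an actin-associated protein and Cda a cytidine deaminase. Their log2 fold changes lay between 1.20 and 1.71 with OGD and between -2.27 and -1.92 with A-485, beside 1.52 and -2.17 for Cish.

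**Figure D5:**
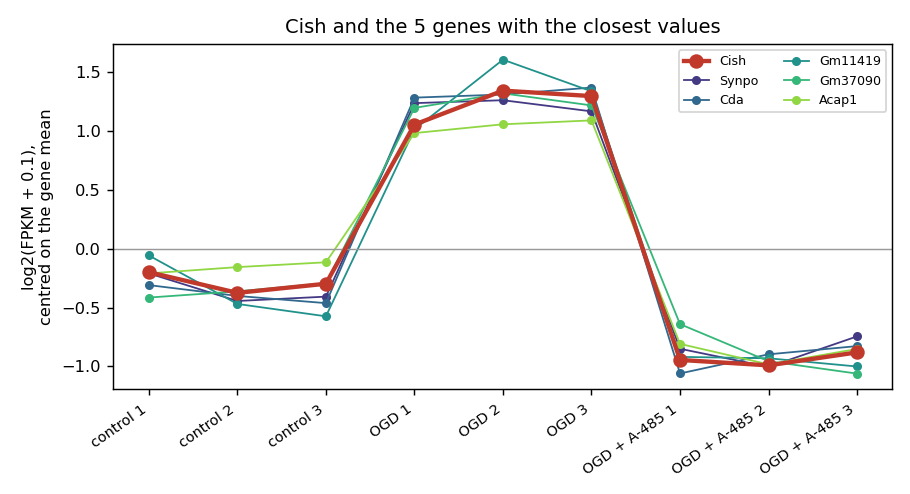
Log2(FPKM + 0.1) centred on each gene's mean (vertical axis) of Cish and the 5 genes nearest to it, in the 9 libraries (horizontal axis). Lines only join the values of a gene. Each gene is high in the OGD libraries and lowest with A-485.

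Per length, the members spanned a wide range of levels. In control, Jak1 and Stat6 led with means of 29.5 and 27.4 FPKM, and Socs2 and Socs1 were lowest with 0.759 and 0.746, values that overlapped. Neighbouring levels that overlapped were also Socs3 and Stat3, and Jak2 and Stat5a. In OGD, Cish stood above Jak2 and Stat5a in every library, and with A-485 it stood below both in every library. In OGD the overlapping neighbours were Jak1 and Stat6, and Stat5b and Stat3, and with A-485 each gene lay above the next in every library.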

How the data were processed

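The authors deposited FPKM per gene, computed from featureCounts v1.5.0-p3 counts and gene length, and coordinates of 10 of 10 members equal those of GENCODE M21 (GRCm38). FPKM times gene length and a library divisor gave whole reads for 100% of values (tolerance 0.01). From these reads, depth limits Socs1 most. Spread within groups exceeded that of counting alone (2.67 to 5.24 times, as chi-square over its degrees of freedom). Libraries were grouped by their labels. On log2(FPKM + 0.1), limma 3.58.1 (R 4.3.3) was fitted to the 16123 genes averaging 0.2 FPKM or more, with a mean per group, a trended prior variance and Benjamini-Hochberg adjustment over all genes tested, and was tested on simulated data. Ratios of members were compared by two-sided exact permutation tests. Tables were made with Python 3.11.15, scipy 1.17.1, pandas 2.3.3 and numpy 2.4.6, and plots with matplotlib 3.10.9.

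The members and gene lists were chosen with earlier results of these data known. Named genes are drawn from the members, the rest of their families, and from each list up to 2 called genes that rose most and up to 2 that fell most, for OGD and for A-485 against OGD (average of 1 FPKM or more). Where the report says a gene was chosen after its values were seen, it lies outside this rule. Alternatives were pseudocounts of 1 and 0.01, other filters, quantile normalization, equal library totals, removal of the median of 50 neighbouring genes, a replicate block, no trend, only the groups compared, limma-voom on recovered reads, adjusted p thresholds and each library left out.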

Additional observations from a re-analysis of the deposited data

How the results depend on the processing

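Over the alternatives, Cish lay between 1.20 and 1.61 with OGD and between -2.26 and -1.62 with A-485 against OGD, and Stat5a between 0.58 and 0.77 with A-485 against OGD, called in each. With no minimum size, an adjusted limma p under 0.05 gave 5 members higher and 1 lower with OGD, and 5 higher and 2 lower for OGD + A-485 against control. With the median of 50 neighbouring genes removed, 1 member was higher with A-485 against OGD, and 2 to 3 were with a library left out. Members lower in OGD + A-485 than in control numbered 0 with a pseudocount of 1, and 2 with equal library totals, no trend, limma-voom or an adjusted p under 0.05 at the same size, and 1 to 2 with a library left out. Equal library totals moved the median of all genes in that comparison to -0.09 and the calls from 2747 higher and 2684 lower to 2253 and 3350. This scaling replaces the deposited divisors, which differ from the read totals. Changes near 0 turned sign: Jak2 with A-485 against OGD was 0.02 with quantile normalization or neighbours removed and between -0.06 and 0.01 with a library left out (0.00 without OGD + A-485 replicate 1), and Stat5b against control in OGD + A-485 was -0.01 with neighbours removed. With a library left out, the Jak1 to Jak2 log2 ratio differed by -0.07 to 0.01 (A-485 against OGD) and -0.03 to 0.06 (OGD + A-485 against control). The cause of these differences was not tested.

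Deviations from the group means were not shared by same-numbered libraries (correlations -0.0463 to 0.0386 for 9 such pairs, -0.0599 to 0.0545 for 18 others). The correlations thus gave no sign of pairing by number, but they cannot exclude small effects shared by same-numbered libraries. With the replicate block, 1 member was higher and 0 lower with OGD, 3 and 1 with A-485 against OGD, and 2 and 1 against control, as without it. Values of Socs1 rest on few reads, 13 to 37 per library, with a limma standard error of 0.26 for its log2 fold changes. Socs2 had 96 to 143 reads per library and a limma standard error of 0.16. The smallest change detectable for these genes was not measured.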
